A study of Mus musculus with 4 samples.

Results

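Cxcl9, Cxcl10 and Cxcr3 are the chemokine receptor CXCR3 and its interferon-induced ligands. They were taken by gene symbol from the count tables, where they are 3 of 31053 features, and are described in the cells that held their transcripts. CXCL9 and CXCL10 are small secreted proteins that attract cells carrying CXCR3, a G protein-coupled receptor of activated T cells, regulatory T cells and NK cells. Cxcl9 transcription depends mainly on interferon-gamma, whereas Cxcl10 also responds to type I interferons and to NF-kB. In tumours, macrophages and dendritic cells are known sources of both ligands.

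The cells came from TC-1 tumours, grown from a mouse lung epithelial tumour line in wild-type mice of the strain labelled C57/bl6. The inoculum was 300000 TC-1 cells, placed subcutaneously in each mouse. They were given PBS or a single intraperitoneal injection of the DNA-crosslinking drug cisplatin at 6 mg/kg once the tumour measured 40 mm². There is 1 library for PBS and 1 each for tumours taken 1, 3 and 7 days after cisplatin. No day is given for the PBS library, whose source field reads no treatment, and the number of mice per library is not stated. The sort took CD45+ cells without lineage markers that carried CD90 and CD127, surface proteins of innate lymphoid cells. It supplied 15000 cells per library for loading.

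The libraries hold between 2981 and 10745 barcodes and between 16153484 and 82493626 unique molecular identifiers (UMIs, counted transcript molecules). After filtering, 7425 PBS, 6841 day 1, 4715 day 3 and 2705 day 7 cells were kept, 21686 in all, and pairs of libraries shared between 4 and 32 barcodes. The label of innate lymphoid cells was not borne out for most cells. The macrophage gate, in which at least 1% of a cell's UMIs came from 12 macrophage genes and no CD3 UMI was seen, held between 64.2% and 86.0% of kept cells. In that gate the sort marker genes Thy1 (CD90) and Il7r (CD127) had a UMI in at most 6.52% and 28.4% of cells. The union of 5 lymphoid gates (regulatory, CD8, gamma-delta and other T cells, and NK cells with ILC1) held 295 cells in PBS, 991 on day 1, 927 on day 3 and 266 on day 7. With 1 library per group there is no test and no replicate check. Day, tumour age, sort and library cannot be told apart from treatment, all days are set against the same PBS library, and every interval covers counting error only.

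In the mm10 genome both ligand genes lie on chromosome 5, on the minus strand. Cxcl9 (ENSMUSG00000029417) spans 92321347 to 92328079, and Cxcl10 (ENSMUSG00000034855) spans 92346638 to 92348889. Cxcl10 lies within the opposite-strand gene Art3, which had between 2 and 37 UMIs in the kept cells of a library. Cxcr3 (ENSMUSG00000050232) lies on chromosome X at 101731535 to 101734269, minus strand. The 250 bases upstream of each ligand's start are shown because both genes were higher together on day 3, with matches to the sequence motifs bound by the inducing factors in capitals. They are RefSeq sequences of GRCm38.p6 (mm10), read 5′ to 3′ on the strand of the gene.
Cxcl9, chr5:92328080-92328329: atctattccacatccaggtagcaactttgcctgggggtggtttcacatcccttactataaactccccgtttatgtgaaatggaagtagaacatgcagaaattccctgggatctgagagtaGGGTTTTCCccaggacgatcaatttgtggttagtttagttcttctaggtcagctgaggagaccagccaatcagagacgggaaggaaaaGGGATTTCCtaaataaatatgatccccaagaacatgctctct
Cxcl10, chr5:92348890-92349139: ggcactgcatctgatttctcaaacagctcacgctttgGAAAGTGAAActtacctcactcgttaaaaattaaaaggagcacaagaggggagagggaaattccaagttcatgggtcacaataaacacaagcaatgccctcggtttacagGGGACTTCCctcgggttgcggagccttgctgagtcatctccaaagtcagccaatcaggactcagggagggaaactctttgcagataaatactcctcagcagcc

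The search covered both strands for an interferon-stimulated response element (ISRE, GAAA and GAAA with any 2 bases between) and an NF-kB motif (GGGNNTTCC). The ISRE match lies in the Cxcl10 window, between 213 and 204 bases before the start. Of 32817 promoter windows of the same length, 2.97% held an ISRE. NF-kB matches lie between 130 and 122 and between 42 and 34 bases before the Cxcl9 start, and between 103 and 95 bases before the Cxcl10 start. This motif was present in 4.97% of the windows. Only exact matches to these patterns are in capitals. Other forms of either motif stay in lower case, so the matches are not a full count of sites and do not rank the genes. A match is a description of the letters, not of binding.

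Both ligands were higher 3 days after cisplatin and lower than in PBS at day 7. Cxcl9 stood at 109 UMIs per 1000000 UMIs of the same cells (CPM) in PBS, with a 95% Poisson interval of 107 to 112. Its day 1 level was 162 (159 to 165), its day 3 level 574 (566 to 583) and its day 7 level 61.5 (57.6 to 65.5). The day 3 library is the high one, and none of the 4 intervals overlap. Against PBS, Cxcl9 was 5.25-fold higher on day 3 (95% interval 5.10 to 5.41), and its day 1 ratio of 1.48-fold was under the 1.5-fold used here as a call, which it passed without the cell of most UMIs in each library (log2 ratio 0.59). On day 7 it was 0.562 times PBS. Cxcl10 stood at 249.95 CPM in PBS (246 to 254) and 238 on day 1 (234 to 241). Its day 3 level was 1175 (1164 to 1187) and its day 7 level 159 (153 to 165). Its day 1 and PBS levels lay close together, at a ratio of 0.951. On day 3 Cxcl10 was 4.70-fold higher than in PBS (4.61 to 4.80), and on day 7 it was 0.636 times PBS. From day 3 to day 7 the Cxcl9 level differed by 9.34-fold and the Cxcl10 level by 7.40-fold.

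Cxcr3, the receptor, was far sparser and was higher on all 3 days. It stood at 3.54 CPM in PBS (180 UMIs, 3.04 to 4.10) and 6.98 on day 1 (464 UMIs, 6.36 to 7.65). Its day 3 level was 14.0 (451 UMIs, 12.8 to 15.4) and its day 7 level 7.60 (117 UMIs, 6.28 to 9.10). The day 3 level is the highest and that of PBS the lowest, and days 1 and 7 have overlapping intervals. The ratios to PBS were 1.97-fold on day 1, 3.96-fold on day 3 and 2.14-fold on day 7.

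A gene was called higher or lower in a comparison when it had at least 20 UMIs over both libraries, differed by at least 1.5-fold and had an interval without 1. Of all genes tested on day 1, 17.1% were called higher and 3.84% lower, and among the members only Cxcr3 was called. On day 3, 18.9% were called higher and 15.3% lower, and all 3 members were called higher. On day 7, 19.9% were called higher, as was Cxcr3, and 12.0% lower, as were both ligands. On day 3, 3.68% of the 13493 genes tested had a higher ratio than Cxcl9, 4.22% than Cxcl10 and 5.12% than Cxcr3.

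**Figure D1:**
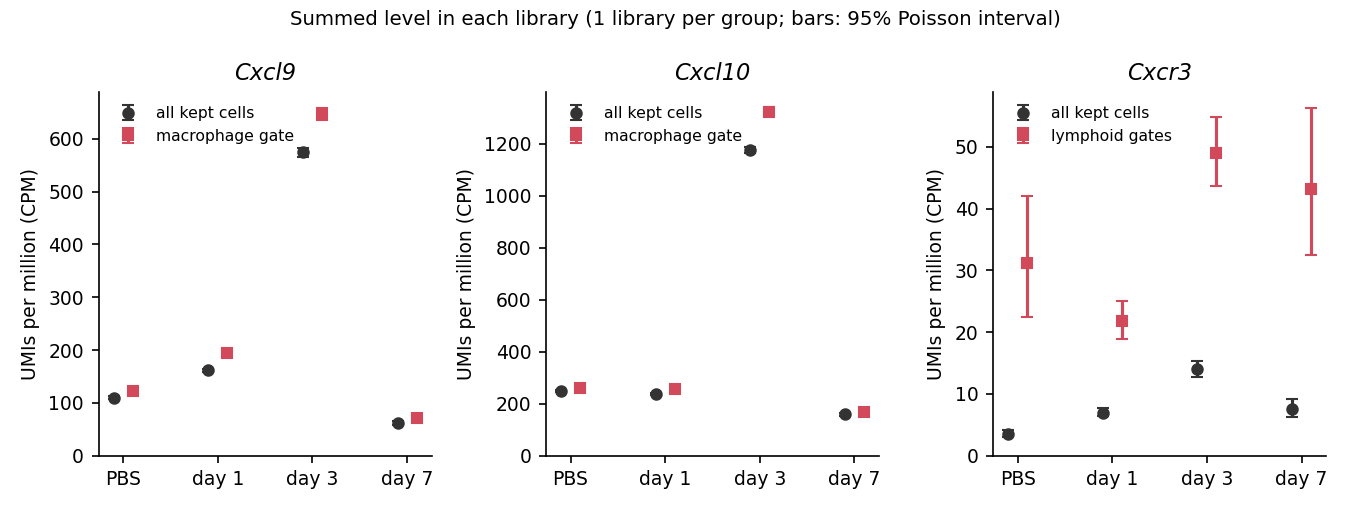
Summed level of each gene in CPM (vertical axis, linear from 0) in the 4 libraries, over all kept cells (circles) and in the macrophage gate or lymphoid gates (squares), with 95% Poisson intervals. Both ligands peak in the day 3 library, at 574 and 1175 CPM over all kept cells, whereas Cxcr3 within the lymphoid gates spans 21.8 to 49.0 CPM.

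Most ligand transcripts were in the macrophage gate, which also held most cells. The gate had 6386 of 7425 kept cells in PBS and 4629 of 6841 on day 1. On days 3 and 7 it had 3028 of 4715 and 2115 of 2705. Its share of Cxcl9 UMIs was 92.5% in PBS, 77.1% on day 1, 69.0% on day 3 and 84.2% on day 7. It held 85.8%, 69.4%, 68.9% and 75.8% of the Cxcl10 UMIs, in the same order. Within this gate Cxcl9 stood at 123 CPM in PBS, 195 on day 1, 647 on day 3 and 71.5 on day 7. The log2 ratios to PBS were 0.67, 2.40 and -0.78, close to those over all cells. In this gate 10.5% of genes were called higher on day 1, 15.4% higher on day 3 and 16.4% lower on day 7, and Cxcl9 was among each. The day 1 call was lost under TMM scaling, at 0.57. Cxcl10 in the gate stood at 260.1, 257, 1324 and 166 CPM, with log2 ratios of -0.02, 2.35 and -0.64. It was called higher on day 3 and lower on day 7. In PBS the Cxcl10 level of the gate lay near the 249.95 of all kept cells and the 266 of the lymphoid gates. In the cisplatin libraries it lay above both, which stood at 1175 and 869 on day 3. After each cell was thinned to 2000 UMIs, to compare equal depths, 5.10%, 8.83%, 27.1% and 5.83% of macrophage-gate cells had a Cxcl9 UMI in PBS and on days 1, 3 and 7. For Cxcl10 the shares were 14.4%, 14.1%, 48.2% and 12.4%. Both shares were highest on day 3. For Cxcl9 the day 7 share lay slightly above that of PBS, although its summed level lay below.

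Cells with at least 20 UMIs of a ligand held most of its UMIs in PBS and on days 1 and 3, but not on day 7. In the PBS macrophage gate, 75 of 6386 cells (1.17%) had at least 20 Cxcl9 UMIs, and they held 69.8% of its Cxcl9. On day 3, 170 of 3028 cells (5.61%) reached 20 Cxcl9 UMIs and held 67.8%. At least 20 Cxcl10 UMIs were found in 127 PBS cells (1.99%) with 60.2% of its Cxcl10, and in 381 day 3 cells (12.6%) with 73.1%. Day 7 had 4 cells at 20 or more Cxcl9 UMIs, with 14.3% of its Cxcl9, and 19 at 20 or more Cxcl10 UMIs, with 33.5% of its Cxcl10. Ranked by UMIs, the highest 2% of day 7 cells still held 61.9% of Cxcl9 and 52.7% of Cxcl10. On day 3 the highest 2% held 41.0% and 26.8%. Both the number of high cells and the level outside them differed between libraries. In cells under 20 UMIs, Cxcl9 stood at 37.5 CPM in PBS, 48.8 on day 1, 226 on day 3 and 61.4 on day 7. Cxcl10 stood at 106, 90.4, 421 and 112. In these cells day 7 lay above PBS for both ligands, whereas over the whole gate it lay below. That order depends on the cut, which took out 69.8% of PBS Cxcl9 but 14.3% on day 7, and 60.2% and 33.5% of Cxcl10. Median depth in the gate also differed, at 6083 UMIs in PBS and 4967 on day 7. Because UMIs of 1 gene are clustered in few cells, the Poisson intervals here are narrower than the spread from cell to cell.

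**Figure D2:**
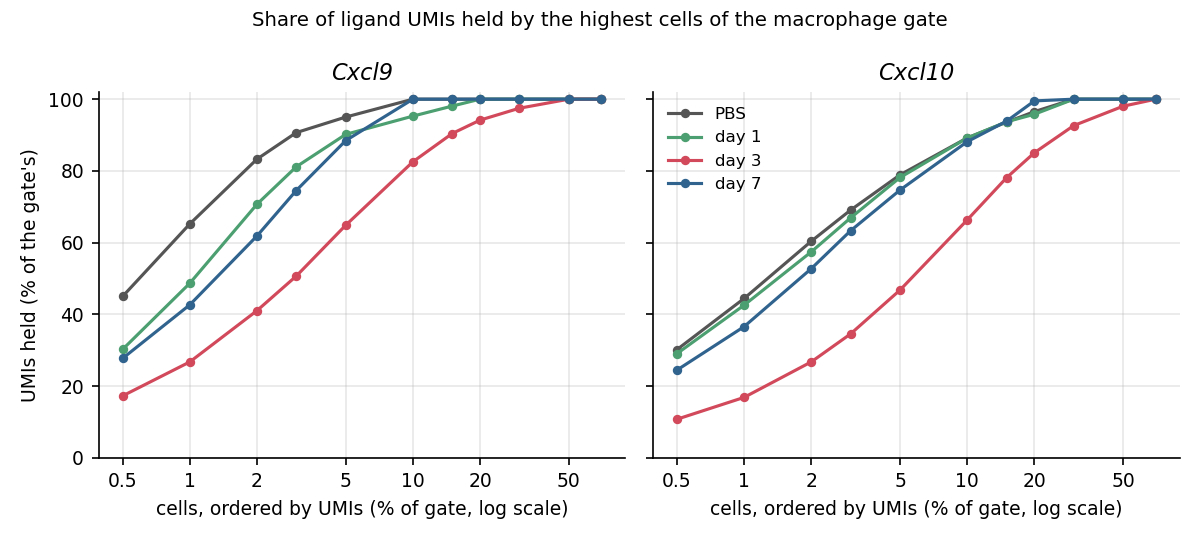
Share of the macrophage gate's ligand UMIs (vertical axis, percent) held by its cells, ordered from the most UMIs down (horizontal axis, percent of cells, log scale), 1 line per library. The day 3 lines lie lowest: the highest 1% of cells held 26.7% of Cxcl9 and 16.9% of Cxcl10, against 65.2% and 44.4% in PBS.

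Most cells high in Cxcl9 were not high in Cxcl10, yet in PBS and on day 1 the overlap was far above the share of high cells in the gate. In PBS 21.3% of the cells with at least 20 Cxcl9 UMIs also had at least 20 Cxcl10 UMIs, against 1.99% of all gate cells. Day 1 gave 24.3% against 2.92%. Day 3 gave 15.9% against 12.6%, where the shares lay close together. Of the day 3 cells with at least 20 Cxcl10 UMIs, 7.09% also had at least 20 Cxcl9 UMIs, 27 cells in all. At equal depth of 2000 UMIs, 10.1% of PBS macrophage-gate cells with Cxcl10 also had Cxcl9 (95% interval 8.21 to 12.3), against 4.25% of the cells without it (3.72 to 4.84). Day 1 gave 20.8% against 6.85% and day 7 gave 11.9% against 4.97%, with intervals that do not overlap either. On day 3 the shares were 27.8% (25.3 to 30.3) and 26.4% (24.1 to 28.8). Holding 1 ligand thus went with holding the other in 3 libraries, and on day 3 the shares differed by less than their intervals. These are shares within single libraries, and cells are not replicates.

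The genes held by the high cells differed between the ligands, as the day 3 library shows. H2-Ab1, which encodes a chain of the MHC class II molecule that presents antigen, stood at 5911 CPM in the Cxcl9-high cells and at 1478 in cells with no Cxcl9 UMI. In the Cxcl10-high cells it was 1925, against 2363 in cells with no Cxcl10. Ccl5, a chemokine for T cells and monocytes, stood at 3028 CPM in Cxcl9-high cells against 671 in cells without Cxcl9. Both genes were thus higher in Cxcl9-high cells. Ccl5 was also higher in Cxcl10-high cells, at 1276 CPM against 1034 in cells without Cxcl10. For the same cells PBS gave 523 against 61.6, day 1 gave 795 against 209 and day 7 gave 1885 against 320. Isg15, a ubiquitin-like protein induced by type I interferon, was 856 CPM in Cxcl9-high cells and 1312 in cells without Cxcl9, whereas in Cxcl10-high cells it was 2871 against 577 in cells without Cxcl10. Irf7, an interferon-induced transcription factor, was 1605 CPM in Cxcl10-high cells against 651. Ly6c2, a marker of inflammatory monocytes, was 606 CPM in Cxcl10-high cells against 207, and 144 in Cxcl9-high cells against 495 in cells without Cxcl9. This direction was not shared by PBS, where Ly6c2 was 14.3 CPM in Cxcl9-high cells against 2.82 and 0 in Cxcl10-high cells against 3.35, nor by day 1 for Cxcl9, at 27.6 against 5.69. The complement gene C1qa, made by macrophages, differed little: 6010 CPM in Cxcl10-high and 5211 in Cxcl10-free cells.

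In the other libraries H2-Ab1 was higher in the high cells of either ligand, except that the 4 Cxcl9-high cells of day 7 were too few to compare. PBS cells high in Cxcl9 had 3433 CPM of H2-Ab1 against 160 in cells without Cxcl9, and day 1 gave 6116 against 499. Cxcl10-high cells had 711 against 232 in PBS, 2276 against 678 on day 1 and 974 against 653 on day 7, so that the absence of a higher H2-Ab1 in Cxcl10-high cells was seen on day 3 alone of the 4 libraries. Isg15 in PBS was 845 CPM in Cxcl10-high cells against 66.8 in cells without Cxcl10. In PBS and on day 1 Isg15 was also higher in Cxcl9-high cells than in cells without Cxcl9, at 278 against 89.1 and 634 against 126. Only on day 3, of the 3 libraries with enough Cxcl9-high cells, was Isg15 lower in them. Nos2, the inducible nitric oxide synthase of activated macrophages, was 46.8 CPM in day 3 Cxcl9-high cells against 6.40, and 29.4 in Cxcl10-high cells against 7.70. Cd274, which encodes the immune checkpoint ligand PD-L1, was 146 CPM in day 3 Cxcl9-high cells against 74.4, and 156 in Cxcl10-high cells against 63.7. Nos2 and Cd274 were thus higher with either ligand. These companion genes were picked with their values known, and the median depth of the high cells was above that of the gate (7980.5 and 7404 UMIs against 6173.5 on day 3).

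Macrophage states were cut by marker UMIs within the gate, and a cell could be in several. Cells with at least 2 Nos2 UMIs had 3227 CPM of Cxcl9 and 2417 of Cxcl10 on day 1 (28 cells), and 2894 and 2572 on day 3 (51 cells). These were the highest levels of any state on those days, while PBS and day 7 had only 4 and 2 such cells. Cells with at least 2 Cd163 or Folr2 UMIs, markers of tissue-resident macrophages, had 54.8 CPM of Cxcl9 in PBS, 76.6 on day 1, 352 on day 3 and 31.8 on day 7. For Cxcl10 they had 228, 212, 1445 and 127. Cells with at least 3 UMIs of Cx3cr1, Fcrls or Hpgd had 84.0, 99.2, 354 and 40.5 CPM of Cxcl9 and 233, 206, 829 and 146 of Cxcl10. Both resident-type states thus followed the order of the gate as a whole. Cells in none of the states made up 10.2% of the PBS gate and 40.7% of the day 3 gate, and on day 3 they held 5896 of its 12733 Cxcl9 UMIs.

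Monocyte-like cells, with at least 2 UMIs of Ly6c2 or Plac8, did not follow that order for Cxcl9. There were 50 of them in PBS, 141 on day 1, 966 on day 3 and 59 on day 7. Cxcl9 stood at 1038, 1332, 505 and 86.5 CPM in these cells, so that day 3 was below PBS (log2 ratio -1.04, interval -1.22 to -0.85). Without the cell that held most Cxcl9 in each library the ratio was -0.88. At equal depth, 34.0% of PBS monocyte-like cells (20.9 to 49.3) and 24.8% on day 3 (22.0 to 27.7) had a Cxcl9 UMI, shares whose intervals overlap. Cxcl10 in the same cells stood at 324, 648, 1710 and 279 CPM, a log2 ratio of 2.40 on day 3 (2.09 to 2.73). Cxcl9 made up 76.2% of both ligands' UMIs in PBS monocyte-like cells, 67.3% on day 1, 22.8% on day 3 and 23.7% on day 7. The 966 cells of day 3 held 28.3% of the library's Cxcl10, against 17.1% of its Cxcl9. Over the whole macrophage gate the Cxcl9 share was steadier, at 32.1%, 43.1%, 32.8% and 30.04%.

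**Figure D3:**
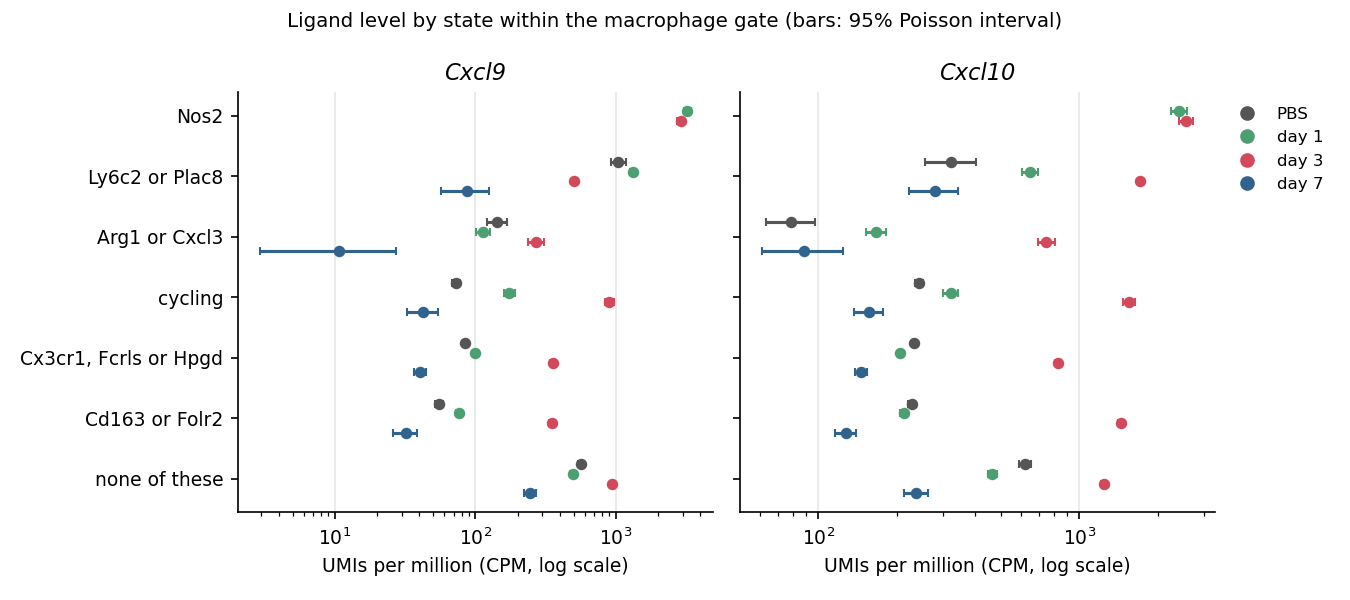
Ligand level in CPM (horizontal axis, log scale) by macrophage state, 1 colour per library, with 95% Poisson intervals; states of fewer than 15 cells in a library are left out. In the Ly6c2 or Plac8 row, day 3 lies left of PBS for Cxcl9 (505 against 1038) and right of it for Cxcl10 (1710 against 324).

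Outside the macrophage gate, migratory dendritic cells also held Cxcl10 on day 3, much of it in 1 cell. These cells, gated on Ccr7, Fscn1 and Ccl22, carry antigen to lymph nodes, and numbered 26, 100, 98 and 19. Their Cxcl10 level was 60.3 CPM in PBS, 105 on day 1, 1787 on day 3 and 63.4 on day 7. A single day 3 cell held 825 of the 1487 UMIs, and without it the level was 904 (837 to 976), a log2 ratio to PBS of 3.67 when the highest PBS cell is left out too. The interval of 837 to 976 takes in the day 3 levels of other gates without their highest cell. These were 858 in ungated cells, 932 in other T cells and 946 in gamma-delta T cells. Cxcl9 in this gate stood at 64.6, 24.9, 449 and 122 CPM, and 44 of the 46 UMIs of day 7 were in 1 cell. Macrophage-marker genes gave 0.4995% of the UMIs of these cells on day 3. On day 3 they had 358 Cxcl10 UMIs per 1000 macrophage-marker UMIs with that cell included, against 33.1 in the macrophage gate. Collagen-expressing stromal cells (41 in PBS, 58 on day 1, 68 on day 7) had 490, 360 and 134 CPM of Cxcl10 and 89.1, 16.0 and 2.41 of Cxcl9. In PBS 44 of their 48 Cxcl9 UMIs were in 1 cell.

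**Figure D4:**
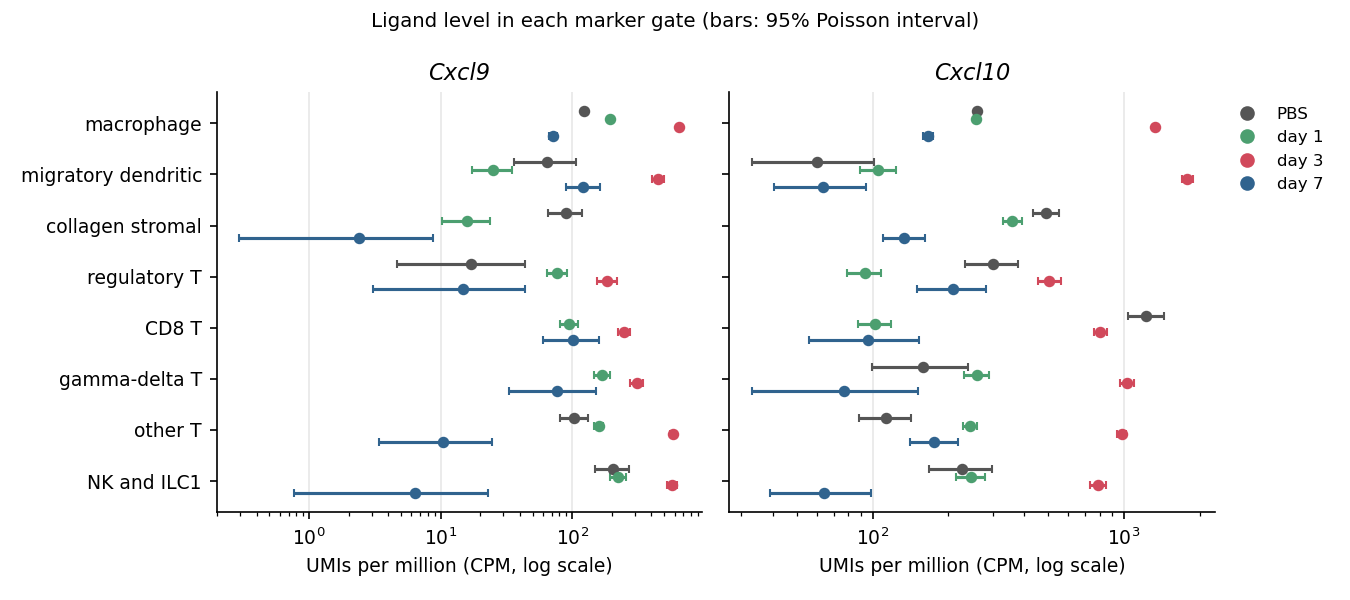
Ligand level in CPM (horizontal axis, log scale) by marker gate and library, with 95% Poisson intervals; gates of fewer than 15 cells and levels of 0 are not drawn. The macrophage gate is highest on day 3 in both panels, and the migratory dendritic gate reaches 1787 CPM of Cxcl10 on day 3, of which 1 cell holds 825 UMIs.

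Lymphoid-gated cells also carried ligand UMIs. Their Cxcl10 level was 266, 192, 869 and 134 CPM and their Cxcl9 level 85.3, 139, 419 and 28.3. Of these cells 40.0%, 68.1%, 38.1% and 46.6% had over 1% of their UMIs from the 12 macrophage genes. Among the others, Cxcl9 stood at 72.7 CPM on day 3, which is 17.1 UMIs per 1000 macrophage-marker UMIs and close to the 16.2 of the macrophage gate. Cxcl10 stood at 791 CPM in them, or 187 per 1000 against 33.1, with 4.05% of it in the highest cell. At equal depth 41.6% of these cells held a Cxcl10 UMI, against 48.2% of the macrophage gate. Whether these UMIs came from free RNA, from doublets or from the lymphocytes was not tested. In small gates single cells set the level: in PBS, 136 of the 145 Cxcl10 UMIs of the CD8 gate were in 1 of 17 cells.

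Cxcr3 per UMI was highest in the lymphoid gates. They held 23.3% of the Cxcr3 UMIs in PBS, 44.8% on day 1, 68.1% on day 3 and 47.0% on day 7, with 3.97%, 14.5%, 19.7% and 9.83% of kept cells. The larger macrophage gate held 66.1%, 44.0%, 24.8% and 44.4% of the Cxcr3 UMIs, so that in PBS most of them were there. Their Cxcr3 level was 31.1 CPM in PBS (42 UMIs, 22.4 to 42.1) and 21.8 on day 1 (208 UMIs, 19.0 to 25.01). The day 3 level was 49.0 (307 UMIs, 43.7 to 54.8) and the day 7 level 43.2 (55 UMIs, 32.5 to 56.2). Day 3 was above PBS and day 1 without overlap, and PBS overlapped day 1 and day 7. The log2 ratios to PBS were -0.51 (-0.996 to 0.00), 0.65 (0.19 to 1.16) and 0.47 (-0.13 to 1.09). The day 1 ratio changed sign, to 0.13, when the gates were cut on counts thinned to 2000 UMIs. Per lymphoid cell RNA the day 3 difference was thus smaller than the 1.99 seen over all cells, where the share of lymphoid cells also differed. In lymphoid cells with at most 1% macrophage RNA the levels were 51.2, 44.9, 77.7 and 76.3 CPM. At equal depth, 6.48%, 6.45%, 11.6% and 7.73% of lymphoid cells had a Cxcr3 UMI (11.2%, 16.2%, 23.1% and 15.8% before thinning).

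Within the lymphoid gates, regulatory T cells, which carry Foxp3 and restrain immune responses, had the highest Cxcr3 level of the 5 gates in each cisplatin library, with intervals that overlapped other gates on days 1 and 7. Their level was 38.6 CPM in PBS (9 UMIs, 17.6 to 73.2) and 38.9 on day 1 (30.3 to 49.2). The day 3 level was 103 (81.1 to 130) and the day 7 level 74.3 (41.6 to 123). The day 3 value lies above PBS and day 1 without overlap. CD8 T cells, the cytotoxic T cells, stood at 16.9, 23.1, 54.8 and 50.8 CPM, of which the PBS value rests on 2 UMIs in 17 cells. The remaining T cells stood at 33.0, 18.3, 45.5 and 21.0 CPM. Gamma-delta T cells had no Cxcr3 UMI in 29 PBS cells (at most 26.5 CPM by the Poisson limit), 4.48 CPM on day 1, 23.9 on day 3 and 67.3 on day 7, the last from 7 UMIs in 21 cells. On day 3 the order was regulatory T, CD8 T, other T, NK with ILC1 and gamma-delta T, and regulatory T cells (81.1 to 130) lay above the CD8 gate (43.2 to 68.6) without overlap. Each of the other neighbours overlapped. Macrophage RNA differed between these gates. On day 3, 12.5% of regulatory T cells and 51.9% of CD8 T cells had over 1% of their UMIs from the macrophage genes. For regulatory T cells the share was 16.4% in PBS and 53.8% on day 1. Such UMIs count in the total behind CPM, and their part in these differences was not tested.

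NK cells and ILC1, gated on Ncr1, Klrb1c, Klra8 and Prf1 without CD3, showed no day 3 peak of Cxcr3. They stood at 45.2 CPM in PBS (21.7 to 83.1) and 22.5 on day 1 (13.7 to 34.7). The day 3 level was 31.8 (20.9 to 46.2) and the day 7 level 44.7 (24.4 to 75.0), and all 4 intervals overlap. The composition of the lymphoid gates also differed: NK with ILC1 made up 17.3%, 9.38%, 10.7% and 27.8% of lymphoid cells, and regulatory T cells 22.7%, 24.9%, 18.1% and 16.2%.

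**Figure D5:**
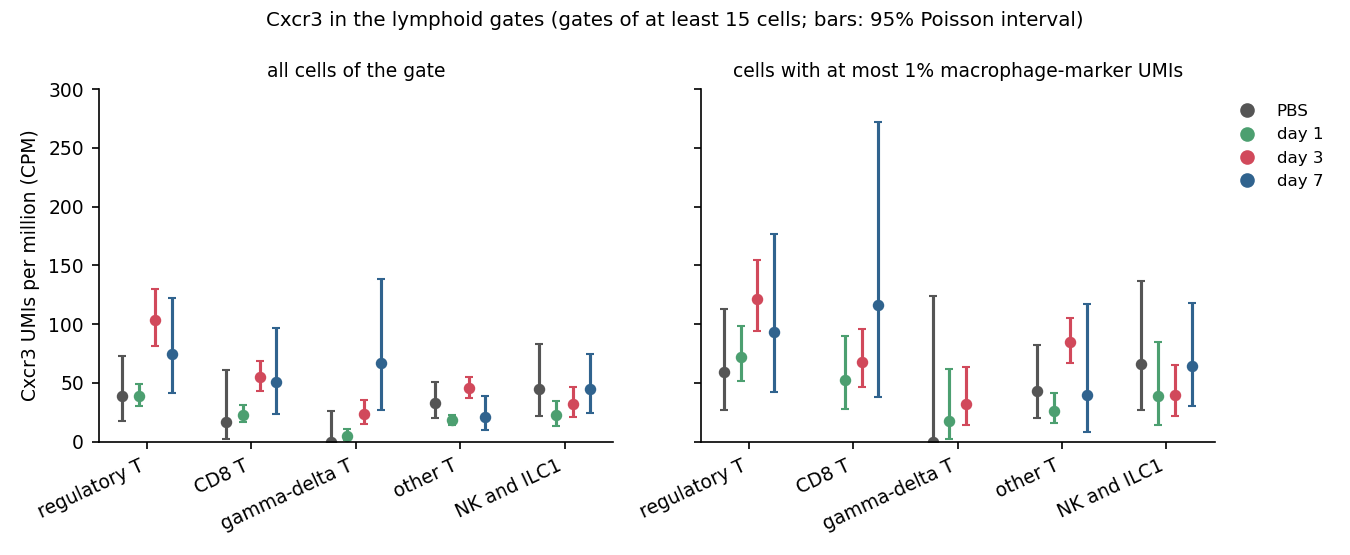
Cxcr3 level in CPM (vertical axis) in the 5 lymphoid gates and 4 libraries, with 95% Poisson intervals, for all cells (left) and for cells with at most 1% macrophage-marker UMIs (right). The day 3 point of regulatory T cells is the highest of its gate in both panels, at 103 and 122 CPM, and the NK and ILC1 points overlap throughout.

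The macrophage gate had a low level of Cxcr3 in all libraries, at 2.84, 4.80, 5.69 and 4.66 CPM. Summed over libraries it was 4.23 CPM (3.86 to 4.62), above the migratory dendritic gate at 0.356 (1 UMI, 0.00901 to 1.98) and the stromal gate at 0.335 (1 UMI, 0.00847 to 1.87). Cxcr3 transcripts were thus nearly absent from the 243 cells of the migratory dendritic gate and the 173 of the collagen stromal gate. After thinning, 0.496% to 1.31% of macrophage-gate cells had a Cxcr3 UMI. Of 35 such cells on day 3, 17.1% (6.56 to 33.6) also had RNA of other lymphocyte genes, against 10.8% of cells without Cxcr3 (9.63 to 12.0). The source of these UMIs was not tested.

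Lymphoid cells with and without a UMI of Ifng or Tbx21, the cytokine and the transcription factor of type 1 lymphocytes, differed in Cxcr3 by less than their counting intervals. On day 3, at equal depth, 10.9% of lymphoid cells with an Ifng or Tbx21 UMI had Cxcr3 (6.59 to 16.7), against 11.7% of the rest (9.45 to 14.4). PBS gave 16.0% (4.54 to 36.1) against 5.24% (2.54 to 9.42), from 25 and 191 cells. The intervals overlap in all 4 libraries. A share of cells with 1 sparse transcript misses most cells that carry it, so these intervals allow sizeable differences either way.

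The other genes of the axis were read from 4 lists of inducers, ligand partners, receptors and receptor-linked genes. Of 22 inducers (interferons, their receptors, signalling, IRF and NF-kB genes and cytokines), 15 were called higher and 0 lower on day 3, with a median log2 ratio of 1.35 against -0.04 over all genes tested, of which 18.9% were called higher. Ifng, the inducer of Cxcl9, had 5.67 CPM in PBS, 17.4 on day 1, 56.3 on day 3 and 6.23 on day 7, a log2 ratio of 3.31 on day 3. Il12b, a subunit of the IL-12 that drives Ifng, had a ratio of 3.13, on 138 against 25 UMIs. In the macrophage gate its ratio was 1.39, on sparse levels of 0.406 CPM in PBS and 1.07 on day 3. Over all kept cells of day 3 its level was 4.30 CPM, and 8 of its 138 UMIs were in the lymphoid gates. Most of its day 3 UMIs were thus in neither the macrophage gate nor the lymphoid gates. Over all kept cells Irf7 had 2.86 and Il27, a cytokine of myeloid cells, had 2.51. All 4 were among the genes called higher.

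Day 1 had 7 of 22 inducers higher and 1 lower, where 17.1% of all genes were called higher and 3.84% lower. The median was 0.39 against 0.14 over all genes. Ifng had a log2 ratio of 1.62, Irf1 of 1.10 and Jak2 of 0.95. Within the lymphoid gates, whose share of kept cells went from 3.97% to 14.5%, the Ifng ratio on day 1 was -0.35 (105 CPM in PBS and 82.5 on day 1), and on day 3 it was 1.24. The lower gene was Ifnb1, the type I interferon itself, at -1.34 on 33 against 64 UMIs, and on day 3 it was higher at 1.65. On day 7, 4 inducers were higher (Irf7 at 1.25, Il27 at 1.05, Ifngr2 at 0.78 and Socs1 at 0.65) and Jak1 was lower at -0.60, with a median of 0.14 against 0.02. The higher count is near the background, where 19.9% of all genes were called higher and 12.0% lower. Irf7 was thus still above PBS on day 7, while Cxcl10 was below it.

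Of the genes that shape ligand signalling, 4 were tested. Dpp4, the peptidase CD26 that clips CXCL10, had log2 ratios of 1.69 on day 1 and 3.01 on day 3, and was the 1 gene of 4 called on day 3, where 18.9% of all genes were called higher. Within the lymphoid gates its ratios were -0.50 and 0.61. Ppbp, a platelet chemokine, was the other call on day 1 at 1.21, where 17.1% of all genes were called higher. On day 7 Sdc4, a heparan sulphate proteoglycan, was called at 1.72 and Ppbp at 0.97, where 19.9% of all genes were called higher. None was called lower. Cxcl11, the third ligand gene, is not among the features and could not be counted.

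Other chemokine receptors also differed. On day 3, 9 of 14 tested were higher and 1 lower, with a median log2 ratio of 1.06 against -0.04 over all genes, of which 18.9% were called higher and 15.3% lower. The largest were Ccr7 (4.001), the lymph node homing receptor, Cxcr5 (3.95), Ccr4 (3.07) and Cxcr6 (2.56), a receptor of tissue lymphocytes. Cxcr5 rested on 39 UMIs against 4 in PBS, and Ccr4 on 53 against 10. The lower gene was Cx3cr1 at -2.48, a receptor of resident macrophages and monocytes. On day 1, 6 of 15 were higher, with a median of 0.73 against 0.14 and 17.1% of all genes called higher. They were led by Ccr8 (2.51, on 52 against 7 UMIs), Ccr7 (2.36), Ccr4 (2.02, on 53 against 10) and Cxcr6 (1.51). Cx3cr1 was lower at -0.70, where 3.84% of all genes were called lower. On day 7, of 11 tested, Ccr8 was higher at 3.00 (17 against 7 UMIs) and Ccr6 lower at -1.34 (6 against 50). The median was -0.25 against 0.02, and 19.9% of all genes were called higher and 12.0% lower. The share of lymphoid cells differed beside these sums, from 3.97% in PBS to 19.7% on day 3. Ccr7 lay mostly outside them, with 940 of its 3839 day 3 UMIs in the lymphoid gates. It is also a marker of the migratory dendritic gate, which held 26 PBS cells and 98 on day 3. Within the lymphoid gates the day 3 ratios were 1.51 for Ccr7, 0.01 for Ccr4 and -0.02 for Cxcr6, and on day 1 they were -0.43, -0.56 and -0.80.

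In the list of 8 genes tied to Cxcr3 expression and signalling, 5 were higher on day 1, 6 on day 3 and 4 on day 7, and 0 lower, against 17.1%, 18.9% and 19.9% of all genes called higher. Day 3 was led by Il12rb2 (3.75), the IL-12 receptor chain, Tbx21 (3.62), Il12rb1 (3.46) and Eomes (3.39). On day 1 Eomes (2.24), Tbx21 (2.18), Il12rb1 (1.84) and Il12rb2 (1.72) were the largest, and Stat4 was also higher at 1.62. On day 7 the calls were Tbx21 (2.54), Eomes (2.34), Il12rb2 (1.67) and Il12rb1 (1.37). The list medians were 1.67, 2.83 and 0.80, against 0.14, -0.04 and 0.02 over all genes. The share of lymphoid cells differed beside these sums too. Within the lymphoid gates the day 1 ratios were near 0, at -0.04 for Tbx21, 0.01 for Eomes, -0.09 for Stat4 and 0.05 for Il12rb1, with Il12rb2 at 0.43. On day 3 they were 1.33 for Tbx21, 1.16 for Eomes, 1.03 for Il12rb1 and 2.35 for Il12rb2. On day 7 Tbx21 was at 1.31, Eomes at 1.22, Il12rb2 at 1.48 and Il12rb1 at 0.20. The signalling genes Gnai2 and Arrb2 were not called on any day.

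Over 28 gate and library profiles of at least 50 cells, the genes most like each member were ranked by Pearson r of log2(CPM + 10) among 10874 genes. Cxcl9 was most like Nfkbie (0.86), Il1b (0.85), Ccrl2 (0.84), Prkcd (0.84) and Fcgr4 (0.84). Nfkbie encodes an NF-kB inhibitor and Il1b an inflammatory cytokine. Cxcl10 was most like Oasl2 (0.89), Parp12 (0.88), Trafd1 (0.87), Ogfr (0.87) and Oasl1 (0.86), of which Oasl1 and Oasl2 are interferon-induced antiviral genes. Cxcr3 was most like Cd27 (0.95), Gimap3 (0.94), Lck (0.94), Spn (0.93) and Shisa5 (0.93), and Lck is the proximal kinase of the T cell receptor. None of the 5 was shared between members. Cxcl9 with Cxcl10 gave 0.70, and Cxcr3 gave 0.22 with Cxcl9 and 0.16 with Cxcl10. Profiles of 1 library share its depth and free RNA, so these are descriptions.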

How the data were processed

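Each deposited matrix gives unnormalised UMI counts, as integers per the file headers. Cell Ranger 3.1.0, Seurat 3.1.2 and the build mm10 are listed in the submitters' processing notes, with no role. Strand use in counting is not given in the sources used here. Barcodes were kept from 500 detected genes upward if mitochondrial UMIs did not exceed 10%. Scrublet's automatic threshold marked 0 cells in each library, so the caller has not worked, and the highest scores were removed instead, at 0.8% per 1000 barcodes (650, 643, 249 and 66 cells). Gates and macrophage states were cut by marker UMIs, first match winning for gates. CPM is a gene's UMIs per 1000000 UMIs of the same cells. Intervals (95%) are Poisson for levels, Clopper-Pearson for shares and conditional binomial for ratios, and no test was made. The ratio calculation was tested on simulated data. A level of 0 was set to 3 counts in ratios, and none of these is printed. Alternatives were doublets kept, all barcodes, TMM scaling (edgeR 4.0.16), macrophage markers at 2% of UMIs, gates cut on thinned counts, lymphoid cells with at most 1% macrophage RNA, and no minimum of UMIs. Those without shared barcodes and without the highest cell were added after seeing the data.

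The members and lists were chosen with earlier results of these data known. Named genes are the members, at most 4 per list and comparison with the largest log2 ratios in size, and the 5 most like each member. Others named (single calls in short counts, companions of high cells) were chosen after their values were seen. The RefSeq promoter table matched all 3 members and sequences are printed for 2. Gene positions came from GENCODE vM21. Some results are not reported here.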

Additional observations from a re-analysis of the deposited data

Results flagged for a closer look

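Under the same comparison with PBS, some gates had log2 ratios of opposite sign, and none of these differences was tested. On day 3 the log2 ratio of Cxcl9 was -1.04 in Ly6c2 or Plac8 monocyte-like cells and 3.80 in ungated cells. On day 1 the Cxcr3 ratio was -1.01 in NK cells with ILC1, on 20 and 10 UMIs with an interval of -2.17 to 0.25 that includes no difference, and 0.75 in the macrophage gate. The Cxcl10 ratio on day 1 was -1.69 in regulatory T cells and 1.11 in the other T cells. Of the 70 Cxcl10 UMIs of the PBS regulatory T cells, 46 were in 1 cell, and without the highest cell of each library the ratio was -0.53. On day 7 the Cxcl10 ratio was -1.82 in NK cells with ILC1 and 0.64 in the other T cells. The NK with ILC1 ratio rested on 20 UMIs on day 7 and 50 in PBS, of which 26 were in 1 PBS cell. Without the highest cell of each library it was -1.43.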

How the results depend on the processing

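Of the 18 log2 ratios over all kept cells, the macrophage gate and the lymphoid gates, no called ratio changed sign under the alternatives run, and the uncalled Cxcr3 ratio of day 1 in the lymphoid gates did. In all, 13 of their 99 values lay outside the counting interval of the reported ratio. Under TMM scaling, Cxcl9 on day 1 was 0.47 over all kept cells and 0.57 in the macrophage gate, where the call was lost. The same scaling gave Cxcl10 ratios of -0.17 over all kept cells and -0.11 in the macrophage gate on day 1, and -0.75 over all kept cells on day 7. With all deposited barcodes, Cxcl10 on day 1 was -0.12. With doublets kept, Cxcl10 on day 3 was 2.28 over all kept cells and 2.39 in the macrophage gate, and Cxcr3 on day 7 in the lymphoid gates became a call at 0.69. Barcodes found in 1 library only gave 2.20 for Cxcl10 on day 3. Macrophage markers at 2% of UMIs or more gave Cxcl10 ratios of -0.10 on day 1 and 2.26 on day 3. With gates cut on thinned counts, Cxcl9 on day 1 was 0.60 in the macrophage gate, and Cxcr3 on day 1 in the lymphoid gates was 0.13 against -0.51. The cause of these moves was not tested. No paired analysis was possible because each group is 1 library. Depth limits Cxcr3 most: the PBS lymphoid gates rest on 42 UMIs.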

Other observations

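Barcodes that failed the filter on genes and mitochondrial counts (1988 in PBS, 3261 on day 1, 1300 on day 3 and 210 on day 7) are outside the report's comparisons, and their ligand levels are given as values. Cxcl9 stood at 57.9 CPM in these barcodes of the PBS library, 52.6 on day 1, 241 on day 3 and 28.9 on day 7. Cxcl10 stood at 215, 137, 700 and 193 CPM.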
